A study of Mus musculus with 4 samples.

Results

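RNA of 10 entries, astrocyte genes and the entry M25937, was examined in laser-captured motor neuron cell bodies of mouse spinal cord. They are together called astrocyte entries below, and the deposited tables hold 27189 genes. The entries were Gfap, M25937, S100b, Aldoc, Apoe, Glul, Slc1a2, Slc1a3, Aqp4 and Aldh1l1. They were chosen by symbol and, for a symbol with several entries, by the highest mean RPKM, the level of a gene scaled to transcript length and mapped reads. Each symbol had 1 entry, so the RPKM removed nothing. M25937 was included because its row lies next to that of Gfap. All 10 entries were chosen with earlier results of these data known, and their values are given as a description. All 10 entries passed the filter on low values, which asked for a mean RPKM of 1 across the 4 libraries, as did 11530 genes in all.

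The libraries came from 2 wild-type and 2 G85R mice, 1 mouse per library, all 3 months old and on a C57BL/6J x SJL/J background. Mice of both genotypes carried a genomic fragment of human SOD1 fused to YFP, without a mutation in strain 592 and with the G85R mutation in strain 737. The strains also differ in the number of transgene copies, so that mutation, copy number and strain cannot be told apart. Cell bodies were cut from 20 µm ventral horn sections stained with Azure B, and 3000 to 4000 were pooled from each mouse. G85R cells with large bright aggregates were left out of the capture, so that the G85R libraries do not represent all motor neurons of these mice.

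Astrocytes surround motor neuron cell bodies and take up the glutamate released at their synapses, convert it to glutamine, buffer water and ions, and supply lipids and lactate. Around injured neurons they become reactive, a state in which the intermediate filament protein GFAP typically accumulates. A captured cell body is cut together with processes of neighboring cells. In RNA from such captures, a larger amount of astrocyte material, more RNA per astrocyte and RNA of the captured neurons themselves cannot be told apart.

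Motor neuron markers were abundant. The summed RPKM of 12 markers was 13286 and 14232 in wild-type replicates 1 and 2, against 11796 in G85R replicate 1 and 13633 in G85R replicate 2. The 10 astrocyte entries summed to 1209 and 1183 in wild-type and to 1879 and 1292 in G85R. Aldoc and S100b, with means of 507.5 and 451.8 over the 4 libraries, weighed most in these sums. The sum of the 10 was highest in G85R replicate 1, the library with the lowest sum of motor neuron markers. The study placed Nefl, Nefm, Prph and Calca, all among the 12 markers, with the genes reduced in G85R. Whether the low marker sum reflects less motor neuron RNA was not tested. The ratio of the genotype means of the astrocyte sum was 1.33, and with 2 libraries against 2 an exact permutation test, two-sided, has a smallest p of 1 in 3. Reads on genes, estimated from the deposited values, numbered 21560318 to 25186594 per library.

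Gfap (Entrez Gene 14580), the intermediate filament of astrocytes, had RPKM values of 11.5 and 17.1 in the wild-type libraries, 91.9 in G85R replicate 1 and 28.4 in G85R replicate 2. Both G85R libraries lay above both wild-type libraries, G85R replicate 1 at 6.42 times and G85R replicate 2 at 1.99 times the wild-type mean. The estimated reads were 579 and 916 in wild-type versus 4229 and 1390 in G85R, so that the difference between the G85R libraries was not one of a few reads. The log2 fold change was 1.86 (standard error, SE, 0.49, 95% confidence interval 0.70 to 3.02), with an unadjusted p of 0.00688 and an adjusted p of 0.212 from limma. The G85R replicates differed by 1.69 on the log2 scale, and 35 of the 11530 tested genes had a larger difference between these replicates. Gfap is on the minus strand of chromosome 11 (chr11:102748650-102762226, NCBIM37) and overlaps Gm17536 on the plus strand. Reads of overlapping genes cannot be told apart in counts made without strand.

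The study measured Gfap RNA by qRT-PCR as a test of the purity of its captures. It found a small part of the amount in total ventral horn RNA, and concluded that contamination from astrocytes was minimal. The forward primers of that assay are shown because they place it on the same gene as the RPKM. Both matched coding sequence on the minus strand of NCBIM37, in exon 5 (chr11:102754839-102754858) and in exon 2 (chr11:102757072-102757093), and among the annotated protein-coding transcripts they matched Gfap alone.
Gfap forward primer 1: ctccgccaagccaagcacga
Gfap forward primer 2: gcagagaacaacctggctgcgt

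M25937 stands directly before Gfap in the order of the tables, and the annotation used here holds no gene of that name. Its RPKM was 23.5 and 24.1 in wild-type, 174 in G85R replicate 1 and 49.5 in G85R replicate 2. The 2 wild-type libraries were nearly equal, and the G85R libraries lay at 7.34 and 2.08 times their mean. The ratio of M25937 to Gfap stayed between 1.41 and 2.04 over the 4 libraries. The log2 fold change of M25937 was 1.96 (SE 0.50). Nearby rows had other profiles. Eftud2, a splicing factor, had 50.4 and 43.5 in wild-type versus 36.9 and 42.4 in G85R, and C1ql1 had 0.748 and 1.12 in wild-type versus 1.40 and 1.04 in G85R.

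**Figure D1:**
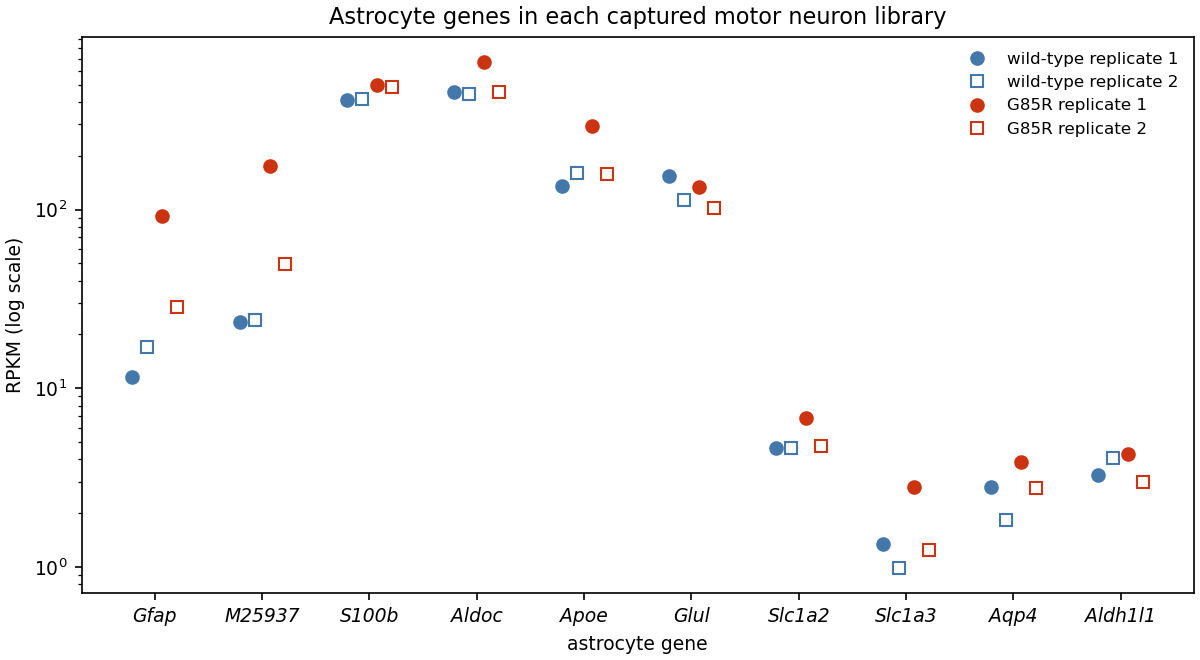
RPKM of the 10 entries in each of the 4 libraries, on a log scale, with 1 point per library. Gfap and M25937 are the only entries in which G85R replicate 1 stands more than 3 times above every other library, and S100b is nearly level across the 4.

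S100b, a calcium-binding protein of astrocytes that other neural cells can also express, differed least between replicates. Its RPKM was 412 and 414 in wild-type versus 498 and 483 in G85R. Both G85R libraries were higher, by factors of 1.21 and 1.17 over the wild-type mean. The log2 fold change was 0.25 (SE 0.09, 95% confidence interval 0.04 to 0.45), with an unadjusted p of 0.0256 and an adjusted p of 0.37 from limma. S100b is on chromosome 10 (chr10:75716598-75723904, plus strand, NCBIM37) and overlaps Dip2a on the minus strand.

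Aldoc and Apoe serve metabolism and lipid transport. Aldoc, the brain form of the glycolytic enzyme aldolase, had the highest mean of the 10, with 458 and 443 in wild-type, 671 in G85R replicate 1 and 458 in G85R replicate 2. The lower G85R library thus equaled the higher wild-type library to 3 digits. Its log2 fold change was 0.30 (SE 0.17, adjusted p = 0.6 from limma). Apoe, the main apolipoprotein of the brain, had 136 and 160 in wild-type, 293 in G85R replicate 1 and 159 in G85R replicate 2. The genotypes overlapped, and G85R replicate 1 alone was high, at 1.98 times the wild-type mean. The log2 fold change of Apoe was 0.55 (SE 0.26, adjusted p = 0.511 from limma).

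The genes of glutamate handling did not move as 1 group. Slc1a2, the glutamate transporter GLT-1, had 4.66 and 4.64 in wild-type, 6.81 in G85R replicate 1 and 4.72 in G85R replicate 2, and its log2 fold change was 0.28 (SE 0.19, adjusted p = 0.681 from limma). Slc1a3, the glutamate transporter GLAST, was the lowest of the 10, with 1.35 and 0.99 in wild-type versus 2.81 and 1.24 in G85R. The genotypes overlapped, on 61 to 149 estimated reads, and the log2 fold change of Slc1a3 was 0.65 (SE 0.38, adjusted p = 0.608 from limma). Glul, the glutamine synthetase that turns glutamate into glutamine, was highest in wild-type replicate 1, with 155 and 113 in wild-type versus 134 and 102 in G85R. For Glul the log2 fold change was -0.18 (SE 0.18, adjusted p = 0.812 from limma). It was 0.05 without wild-type replicate 1 and 0.01 without G85R replicate 2, so that it had no stable direction.

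Aqp4, the water channel of astrocyte endfeet, had 2.79 and 1.84 in wild-type versus 3.87 and 2.78 in G85R, with overlap between the genotypes. Its log2 fold change was 0.51 (SE 0.25, adjusted p = 0.531 from limma). Aldh1l1, a folate enzyme widely used to mark astrocytes as a class, had 3.25 and 4.06 in wild-type versus 4.27 and 2.97 in G85R. For Aldh1l1 the log2 fold change was -0.03 (SE 0.22, adjusted p = 0.982 from limma), and it changed sign after quantile normalization, without wild-type replicate 2 and without G85R replicate 2.

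**Figure D2:**
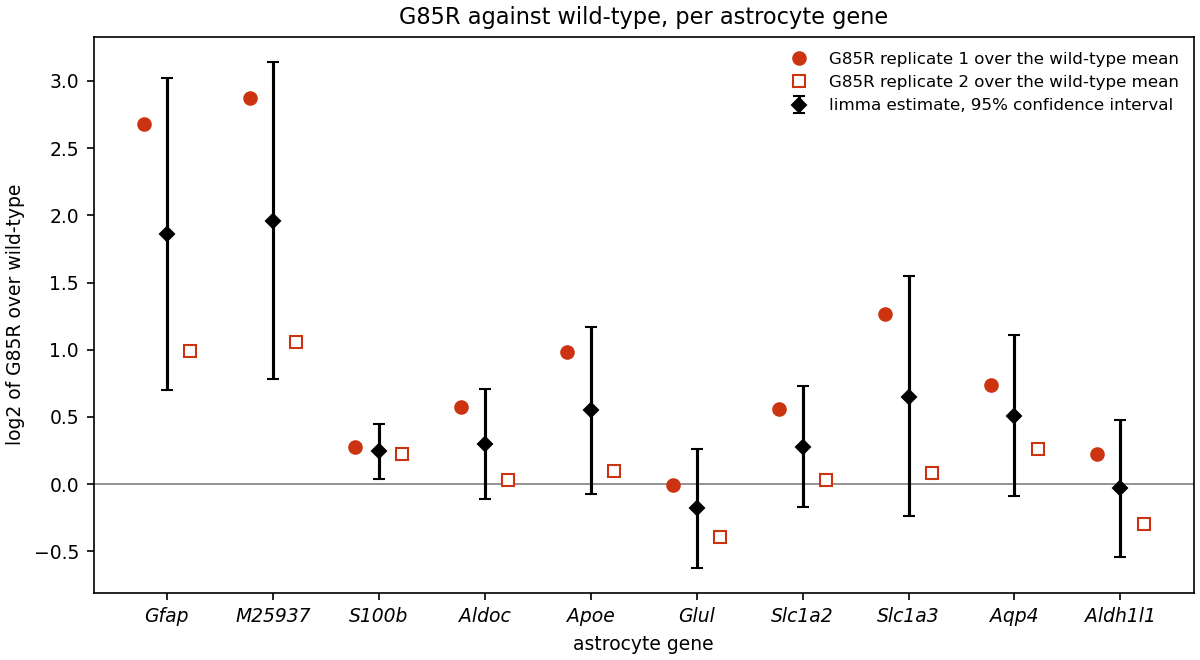
Log2 of G85R over wild-type for each entry: circles and squares give G85R replicates 1 and 2 over the wild-type mean, and diamonds the limma estimate with its 95% confidence interval. The interval lies above 0 for Gfap, M25937 and S100b, and the squares of the other entries lie nearer to 0 than those of Gfap and M25937.

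At an adjusted p under 0.05 limma called 0 of the 10 entries, while it called 0.642% of all tested genes in either direction. At an unadjusted p under 0.05, 3 of the 10 were higher in G85R (Gfap, M25937 and S100b), compared with 4.66% of the tested genes. That count depended on the settings. With a robust variance setting, limma p was 0.126 for Gfap and 0.12 for M25937. Without the filter on low values, limma p was 0.104 for Gfap, 0.0966 for M25937 and 0.128 for S100b. Without a trend, limma p was 0.0727 for S100b. In the other alternatives with all 4 libraries, p of these entries stayed under 0.05. Both G85R libraries lay above both wild-type libraries in 5 of the 10, which adds Aldoc and Slc1a2 by small margins, against 17.3% of the tested genes. In 0 of the 10 did both lie below, against 23.9%. The mean was higher in G85R in 8 of the 10, against 45.1%. All 10 entries were chosen with earlier results of these data known, so that these counts are a description. M25937 also follows Gfap, and the counts were made without both as well. They were then 1 of 8 at an unadjusted p under 0.05 from limma, 3 of 8 with both G85R libraries above and 6 of 8 with a higher mean. Leaving out Gfap and M25937 does not free the other 8 from that choice. The median log2 fold change of the 10 was 0.41, that of the 8 was 0.29 and that of all tested genes -0.02.

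The size of most differences followed G85R replicate 1, but the mean was higher in 8 of the 10 without it as well. G85R replicate 1 held the highest value of 9 of the 10 entries, Glul being the exception, against 27.3% of the tested genes. It exceeded G85R replicate 2 in 10 of 10, against 54.2%. The median log2 difference from the wild-type mean was 0.64 in G85R replicate 1 but 0.09 in G85R replicate 2. Leaving out Gfap and M25937 changed these medians to 0.56 and 0.05, and the summed RPKM of the other 8 entries was 1174 and 1142 in wild-type versus 1613 and 1214 in G85R.

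Gfap and M25937 were the entries that stayed apart from wild-type in both G85R libraries by more than the spread of the wild-type libraries and by a factor of about 2 or more. Without G85R replicate 1, the log2 fold change was 1.01 for Gfap (adjusted p = 0.0583 from limma) and 1.05 for M25937, and limma then called 0.329% of the tested genes higher. In the same fit it was 0.11 for Apoe, 0.09 for Slc1a3, 0.03 for Aldoc, 0.02 for Slc1a2 and 0.23 for S100b. Without G85R replicate 2, it was 2.70 for Gfap, 2.87 for M25937 and 0.99 for Apoe, with adjusted p of 9.46e-05 for Gfap and 0.00949 for Apoe from limma, where 0.536% of the tested genes were called higher. In these fits 1 genotype has a single library, which is assumed to vary like the others.

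**Figure D3:**
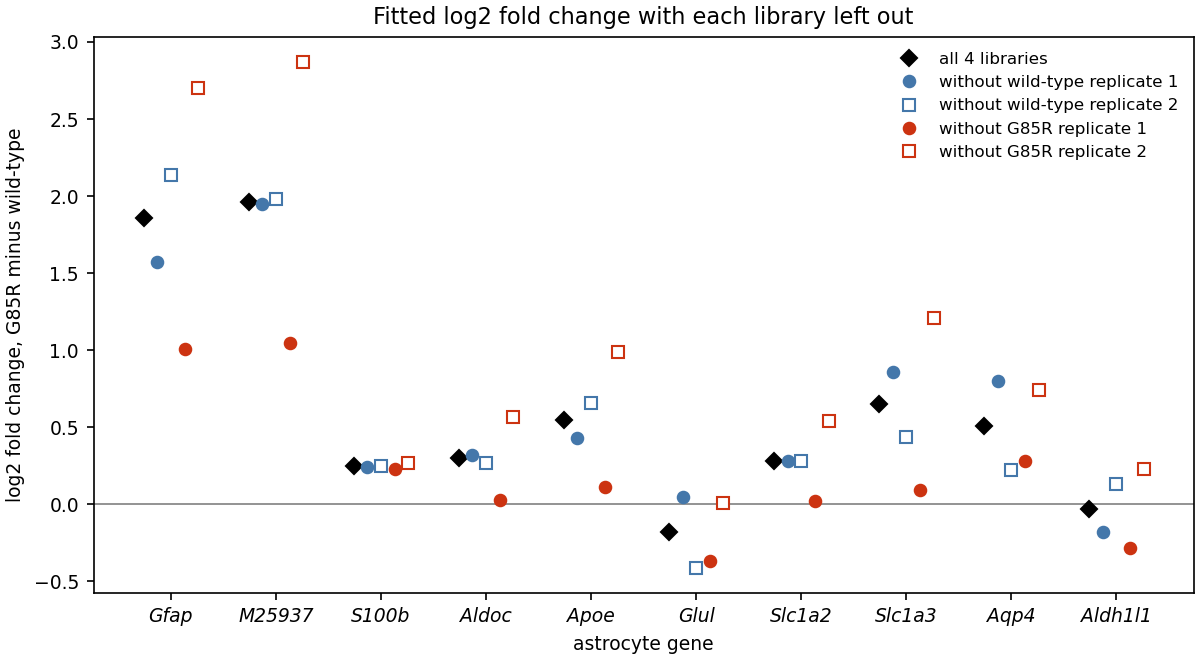
Log2 fold change of each entry from limma with all 4 libraries (diamonds) and with each library left out. Without G85R replicate 1 the values of Aldoc, Apoe, Slc1a2 and Slc1a3 fall to between 0.02 and 0.11, those of Gfap and M25937 stay at 1.01 and 1.05, and that of S100b stays at 0.23.

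The log-linear likelihood ratio test, in which the RPKM, with 1 read added, are modeled as Poisson counts, called 4 of the 10 as higher, M25937 among them, with adjusted p of 3.03e-11 for Gfap, 0.000325 for Aldoc and 1.41e-05 for Apoe. It called 0.143% of all 27189 genes as higher. The model holds no term for the spread between mice, and its calls favor genes of high RPKM, which it treats as larger counts.

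The genes nearest to Gfap were found by the distance between log2 profiles centered on their mean over the 4 libraries, a description of 4 points that says nothing of shared function. In order they were Fgf21, M25937, Tyrobp, Cd63 and Card9, at distances of 0.24 to 0.89. Fgf21, a secreted metabolic hormone, had RPKM values of 0.47 and 0.578 in wild-type versus 3.84 and 1.23 in G85R. Tyrobp, a signaling adaptor of microglia, had 1.39 and 1.48 in wild-type versus 5.29 and 1.93 in G85R. Card9, an adaptor of immune cells, had 4.06 and 5.76 in wild-type versus 17.2 and 12.1 in G85R. Since they were chosen for likeness to Gfap, their genotype difference is a description. Apoe and Slc1a3 ranked 54 and 55 of 11529 genes by this distance, and Glul ranked 7900.

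The median log2 fold change of further astrocyte markers was below the 0.41 of the 10 entries, while Mt2, Cbs and Mt1 lay above 0.41. Of 40 further markers, 38 were tested and 0 were called by limma, against 0.642% of all tested genes. An unadjusted p under 0.05 was found for 7, all higher in G85R, where 4.66% of all tested genes were higher at that p. The mean was higher in G85R in 28 of the 38 (45.1% of all tested genes), and the median log2 fold change was 0.07. Both G85R libraries lay above wild-type in 14 (17.3% of all tested genes) and below in 6 (23.9%). G85R replicate 1 held the highest value in 22 of the 38 (27.3% of all tested genes). Of the metallothioneins, small metal-binding proteins, Mt2 and Mt1 had the largest and the third largest log2 fold change of the list. Mt2 had 42.5 and 55.8 in wild-type versus 80.6 and 108 in G85R, with its highest value in G85R replicate 2 (log2 fold change 0.94, adjusted p = 0.105 from limma). Mt1 had 136 and 178 in wild-type versus 235 and 213 in G85R (log2 fold change 0.53, adjusted p = 0.222 from limma). Mt3 had 754 and 849 in wild-type versus 983 and 975 in G85R (log2 fold change 0.29, adjusted p = 0.337 from limma).

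Clu, the secreted chaperone clusterin, was the most abundant of the further markers, with 805 and 852 in wild-type versus 935 and 1060 in G85R (log2 fold change 0.27, adjusted p = 0.408 from limma). Sparcl1, a secreted matrix protein, and Pla2g7, a phospholipase, overlapped between the genotypes, with log2 fold changes of 0.17 and 0.03. Cst3, the protease inhibitor cystatin C, had 297 and 364 in wild-type versus 367 and 366 in G85R. Cbs, an enzyme of homocysteine metabolism, had a log2 fold change of 0.56. The lowest log2 fold changes were -0.46 for Bmpr1b, a receptor of bone morphogenetic proteins, -0.27 for Id4, a regulator of transcription, and -0.22 for Lfng, a glycosyltransferase that modifies Notch. Adjusted p for these 7 genes lay above the threshold in limma.

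Genes known to rise in reactive astrocytes lay on both sides of wild-type. Of 36 listed, 34 were in the tables, 17 were tested and 0 were called by limma (0.642% of all tested genes). An unadjusted p under 0.05 was found for 2 higher and 2 lower genes, against 537 and 735 of all 11530 tested genes. Both G85R libraries lay above wild-type in 5 of the 17 (17.3% of all tested genes) and below in 5 (23.9%), and the median log2 fold change was 0.16. S100a6, a calcium-binding protein, had 1.05 and 1.07 in wild-type versus 2.60 and 1.81 in G85R (log2 fold change 0.97, adjusted p = 0.183 from limma). Vim, the intermediate filament vimentin, had 2.86 and 4.34 in wild-type versus 4.93 and 4.87 in G85R (log2 fold change 0.46, adjusted p = 0.482 from limma). Spp1, the matrix protein osteopontin, had 990 and 1042 in wild-type versus 635 and 796 in G85R (log2 fold change -0.51, adjusted p = 0.174 from limma). The mean of Spp1 over the 4 libraries was 866, against 37.2 for Gfap, and which cells this RNA came from was not tested. Serping1, the inhibitor of complement C1, had a log2 fold change of -0.80 (adjusted p = 0.314 from limma), and Fbln5, a matrix protein, one of -0.44.

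Further genes of the reactive list differed by less than their replicates. Serpina3n, a protease inhibitor, had 77.1 and 98.9 in wild-type versus 96.5 and 101 in G85R. Stat3, the transcription factor, had 45.4 and 49.2 in wild-type versus 47.1 and 49.6 in G85R. Lcn2, the iron-binding protein lipocalin 2, had 10.7 and 18.0 in wild-type versus 17.3 and 19.1 in G85R. Hspb1 and Gap43, a heat shock protein and a growth cone protein, also overlapped. S100a10, the partner of annexin A2, had 290 and 246 in wild-type versus 300 and 305 in G85R (log2 fold change 0.18).

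Genes that share the glutamate and lipid roles of the 10 entries were also compared. Of 9 tested genes of the glutamate and glutamine cycle, limma called 0, against 0.642% of all tested genes. Their median log2 fold change was 0.13. Glud1, the glutamate dehydrogenase, and Slc1a1, a glutamate transporter of neurons, had values of -0.04 and -0.06, and Slc38a2, a glutamine transporter, 0.22. Of 12 tested lipoprotein and lactate genes, limma called 0 (0.642% of all tested genes), with a median log2 fold change of -0.02. Ldhb, a subunit of lactate dehydrogenase, had -0.09, and Pygb, a glycogen phosphorylase, -0.18. Ldha, the other subunit, chosen after its values were seen, had the largest value of the list, 0.48, and was its only gene with an unadjusted p under 0.05 (0.0259 from limma), with both G85R libraries above wild-type.

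Markers of microglia moved with the same library. Of 20 listed, 13 were tested, and in 13 of 13 the mean was higher in G85R and the highest value was that of G85R replicate 1, while limma called 0. Among all tested genes these shares were 45.1%, 27.3% and 0.642%. The markers summed to an RPKM of 49.4 and 52.2 in wild-type, 98.9 in G85R replicate 1 and 57.6 in G85R replicate 2. Their median log2 difference from wild-type was 1.01 in G85R replicate 1 but 0.11 in G85R replicate 2. Ctss, a lysosomal protease, had 5.61 and 4.96 in wild-type versus 13.8 and 6.64 in G85R. C1qb, a chain of complement C1q, had 4.35 and 4.43 in wild-type versus 8.82 and 4.75 in G85R. Defining markers were low but present, with P2ry12 at 0.871 to 1.32 and Tmem119 at 1.03 to 1.28. The log2 fold changes of these genes were 0.16 and 0.03, against a median of 0.69 for the 13 tested markers. The part of microglial RNA in the values of Gfap and Apoe was not tested.

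Oligodendrocyte markers were highest in G85R replicate 1 in 14 of 18 tested genes, against 27.3% of all tested genes. Their median log2 differences from wild-type were 0.26 in G85R replicate 1 and -0.19 in G85R replicate 2. Their sums were 1291 and 1251 in wild-type versus 1529 and 1248 in G85R. Mbp, a myelin protein, had 302 and 322 in wild-type versus 412 and 334 in G85R. Cryab, a small heat shock protein, had 123 and 144 in wild-type versus 164 and 191 in G85R. Aspa, which cleaves N-acetylaspartate, was called by limma (1.33 and 1.76 in wild-type, 5.63 and 4.57 in G85R, adjusted p = 0.0242 from limma). Hbb-b1, a hemoglobin chain with near-identical copies that can divide its reads, was also called (1.75 and 2.00 in wild-type, 10.7 and 10.2 in G85R, adjusted p = 0.00173 from limma). Unlike Gfap, both called genes were at like levels in the 2 G85R libraries.

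Motor neuron markers had a median log2 difference from wild-type of -0.26 in G85R replicate 1 and -0.02 in G85R replicate 2. Limma called 0 of 12, against 0.642% of all tested genes. The mean was lower in G85R in 11 of the 12, against 6334 of the 11530 tested genes. Nefl and Nefm, the neurofilament subunits, overlapped between the genotypes, and Uchl1, a ubiquitin hydrolase of neurons, had 2414 and 2431 in wild-type versus 2277 and 2330 in G85R. Whether the astrocyte, microglial and motor neuron values of G85R replicate 1 share a source was not tested.

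**Figure D4:**
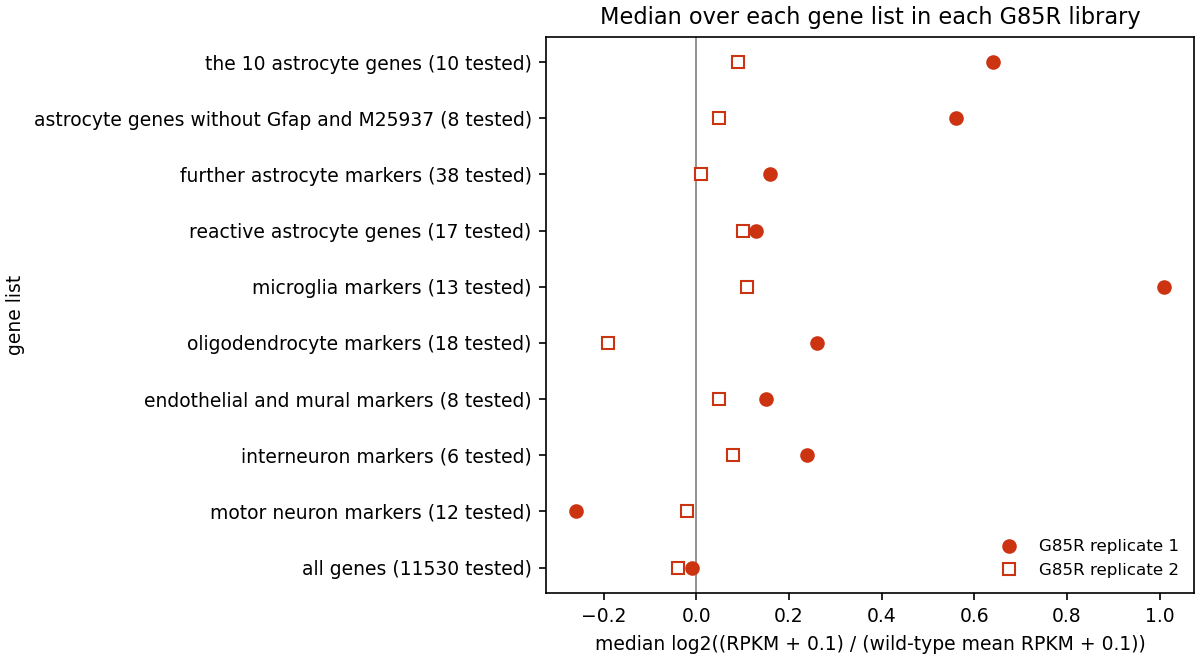
Median log2 difference from the wild-type mean over the tested genes of each list, on log2(RPKM + 0.1), with circles for G85R replicate 1 and squares for G85R replicate 2. Microglia markers stand at 1.01 and the 10 astrocyte entries at 0.64 in G85R replicate 1, against 0.11 and 0.09 in G85R replicate 2, and motor neuron markers at -0.26 and -0.02.

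Promoters were searched for TTCNNNGAA, the core recognized by STAT transcription factors, and for TGANTCA, which covers the AP-1 site, and each is read alike on both strands. The sequences are those of RefSeq on GRCm38.p6, and 8 of the 10 entries were searched, with Aqp4 and M25937 left out. In the 250 bases before the start, TTCNNNGAA was found in 2 of the 8, Aldoc and Slc1a3, and in 8.13% of 27025 genes. When the 50 bases after the start were added, after the first search had been seen, Gfap joined them at the start site itself, and 3 of the 8 and 9.55% of genes held the motif. TGANTCA was found in 0 of the 8 in either window, and in 7.82% and 8.97% of genes. The windows are shown because they place the match of Gfap beside those of an abundant and a scarce entry. Each runs 5′ to 3′ on the strand of its gene, with every match in capitals, of which Aldoc has 2, at chr11:102897194-102897253 (minus) for Gfap, chr11:78324064-78324123 (plus) for Aldoc and chr15:8710895-8710954 (minus) for Slc1a3.
Gfap: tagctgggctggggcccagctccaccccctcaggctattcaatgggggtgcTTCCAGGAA
Aldoc: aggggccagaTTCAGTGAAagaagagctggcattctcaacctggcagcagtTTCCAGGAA
Slc1a3: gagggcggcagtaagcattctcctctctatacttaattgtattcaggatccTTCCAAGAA
The 3 genes differed in RPKM, with Gfap high in both G85R libraries and Aldoc and Slc1a3 high in G85R replicate 1 alone. A match is a description of letters, not evidence of binding.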

How the data were processed

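The authors mapped the reads with Bowtie 0.12.3 to mm9 and to a splice junction database, and quantified each UCSC gene cluster with Cufflinks. The deposited values are RPKM, in a plain form and in a form that includes 1 extra read per gene, and their difference is the RPKM of 1 read (median 0.0195 to 0.0226 per library). Dividing an RPKM by it estimated the reads behind a gene, which are not exact counts.

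Genotypes were compared, 2 libraries against 2, with limma 3.58.1 in R 4.3.3 (eBayes with trend, two-sided) on log2(RPKM + 0.1), a scale that understates changes of low genes. Tested were genes whose mean RPKM reached 1, with Benjamini-Hochberg adjustment over all of them and a threshold of 0.05. The fits were tested on simulated data. Python 3.11.15 computed the other values.

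The 10 entries and the 13 lists, these entries included, were chosen with earlier results of these data known. Named were the 10 entries, called genes of the lists, and the 3 genes of highest mean per list, or 6 in the 2 further astrocyte lists, there with the 3 largest and 3 smallest fold changes, and the 5 genes nearest to Gfap. Eftud2, C1ql1, P2ry12, Tmem119 and Ldha were named after their values were seen. Some genes that the rule names are not reported here. Positions came from an NCBIM37 annotation by symbol. Alternatives were other pseudocounts, filters, scalings, variance settings and thresholds, a replicate block, leaving out each library, summed entries and the log-linear test. The motif window was widened after the first search had been seen.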

Additional observations from a re-analysis of the deposited data

How the results depend on the processing

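The log2 fold changes of Gfap, M25937, Aldoc, Apoe, Aqp4, Slc1a2, Slc1a3 and S100b kept their sign in every alternative that was run, while with 1 library left out that of Glul ranged from -0.41 to 0.05, above 0 without wild-type replicate 1 or G85R replicate 2 (0.01). That of Aldh1l1 was 0.01 after quantile normalization and ranged from -0.28 to 0.23 with 1 library left out, above 0 without wild-type replicate 2 (0.13) or G85R replicate 2. With a mean RPKM of at least 5, Aqp4, Slc1a3 and Aldh1l1 were not tested. Gfap ranged from 1.01 to 2.70 with 1 library left out, and was called without G85R replicate 2 and by the log-linear test, where its log2 fold change was 2.07. Its adjusted p ranged from 3.03e-11 to 0.831 over 17 alternatives. The number of genes called was 74, and became 112 without a filter, 17 with a mean RPKM of at least 5, 40 after quantile normalization, 49 without a trend, 142 at an adjusted p under 0.1, and 80 to 189 with 1 library left out. Of the further astrocyte markers, 0 to 1 were called with 1 library left out (Mt2 or Aldh1a1) and 4 by the log-linear test (Clu, Mt1, Mt2 and Mt3). Of the reactive genes, 0 to 1 were called with 1 library left out and 1 by the log-linear test, Spp1 in both. The causes were not tested. The count of entries with a higher mean was 8 or 9 in the alternatives run. The ratio of their sums was 1.08 without G85R replicate 1 and 1.57 without G85R replicate 2, against 1.33 with all 4 libraries. Its limit, the replicate spread, came from the same G85R libraries, so that leaving out 1 of them could not exceed it.

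With the replicate block, 527 genes were called, Gfap (log2 difference 1.86, limma adjusted p = 0.0126) and M25937 among them, with 2 further astrocyte markers and 2 reactive genes. Deviations of libraries with the same number correlated at 0.22 over 11530 genes, but there are 2 pairs and the labels do not say what a number shares.

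With 2 mice per genotype, a value set by 1 library cannot be told apart from one of the genotype. Slc1a3 and Aqp4 rest on fewer reads than Gfap, 61 to 149 and 100 to 181 per library, and the depth behind an RPKM is an estimate.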

Other observations

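Markers of other cells near the motor neurons were compared in the same fit. Of 8 interneuron markers, 6 were tested, and in 6 of 6 the mean was higher in G85R and the highest value was that of G85R replicate 1, while limma called 0. Among all tested genes these shares were 45.1%, 27.3% and 0.642%. Slc32a1, the vesicular transporter of inhibitory transmitters, had RPKM values of 81.8 and 90.7 in wild-type versus 93.6 and 89.4 in G85R. Slc6a5, the neuronal glycine transporter, had 52.3 and 56.5 in wild-type versus 61.1 and 58.8 in G85R. Slc17a6, a vesicular glutamate transporter, had 41.5 and 35.2 in wild-type versus 50.3 and 43.2 in G85R.

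Endothelial and mural markers had a median log2 fold change of 0.15 over 8 tested genes. The mean was higher in G85R in 6 of the 8 (45.1% of all tested genes). Both G85R libraries lay above wild-type in 3 and below in 2, Itm2a and Cldn5 (17.3% and 23.9% of all tested genes). Itm2a, a membrane protein, had 90.6 and 92.4 in wild-type versus 56.2 and 71.3 in G85R (adjusted p = 0.184 from limma). Cldn5, the tight junction protein, had 5.25 and 6.81 in wild-type versus 4.24 and 4.71 in G85R, and Slc2a1, the glucose transporter, overlapped. Foxj1, a transcription factor of ciliated ependymal cells, had 17.3 and 16.5 in wild-type versus 20.2 and 20.5 in G85R, while Pltp, a lipid transfer protein, overlapped. Of 4 tested markers of oligodendrocyte precursors, 4 had a lower mean in G85R, against 6334 of the 11530 tested genes. Among the 4 were Olig1, Sox10 and Olig2. Limma called 0 of them, against 0.642% of all tested genes.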
